A study of Mus musculus with 28 samples.

Results

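The tissue inhibitors of metalloproteinases (TIMPs) are encoded by *Timp1*, *Timp2*, *Timp3*, and *Timp4*. These genes were taken by symbol, and all 4 were found among the 56980 genes of the bulk count table and among the 32285 genes of each single-cell matrix. TIMP proteins bind the active site of matrix metalloproteinases (MMPs), and some also block ADAM and ADAMTS proteases. *Timp1* is the member best known for induction by cytokines and growth factors. *Timp2* is made widely and also takes part in the activation of pro-MMP2 by MMP14, *Timp3* stays bound to the extracellular matrix (ECM) and inhibits ADAM17 and several ADAMTS enzymes, and *Timp4* has the narrowest distribution, with heart and vessels among its main sites.

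The TIMP genes were followed after mice received an arteriovenous fistula (AVF) in the neck, in which the end of a jugular vein is joined to the side of the carotid artery. All mice were C57BL/6, male or female, and all had 5/6 nephrectomy some weeks before the anastomosis, so that the contralateral jugular veins used as controls came from uremic animals too. Bulk RNA sequencing covered 7 contralateral veins (5 labelled female, 2 male) and the outflow vein of 8 early (3 female, 5 male), 5 mid (3 female, 2 male), and 5 late AVFs (3 female, 2 male), with 3, 10, and 21 as the day in their labels. Single-cell RNA sequencing covered 1 early, 1 late, and 1 contralateral library, made from pools of 10 vessels of both sexes. The labels give no day for these libraries, and by the study's description their vessels were on average harvested later than the bulk ones at both time points, so early and late do not mark the same days in both assays. Vessels were ground for bulk RNA and minced and digested with enzymes for single cells.

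Total counts ranged from 20254173 to 67457501 per bulk library, and contralateral veins had fewer genes detected (11958 to 18283) than mid and late AVFs (24529 to 26771). In 8 of the 25 libraries, all of them AVFs, the counts of *Xist* and of 4 Y chromosome genes went against the sex in the label: early AVFs 5 and 10, mid AVFs 12 and 14, and late AVFs 17, 19, 23, and 24. As many of these were labelled male as female in each group. The tests of the TIMP genes were repeated without them, whereas shares, correlations, and gene lists are given for all libraries only. Early AVFs 3, 5, and 6 stood apart from the other early AVFs, with TMM scaling factors of 0.699 to 0.803 and 17514 to 21522 genes detected, compared with 24033 to 25141 in the others. The labelled tissue was checked by marker genes: all 9 smooth muscle markers had counts in every library, and so did the 10 endothelial markers except for 1 at 0 in contralateral vein 31. Their summed levels were 11020 to 22960 and 2509 to 4374 CPM (counts scaled to a common library total) in contralateral veins and 1148 to 4217 and 410 to 982 CPM in AVFs. The summed level of 8 skeletal muscle markers was 1.18 to 41.1 CPM for contralateral veins, 5.55 to 4538 for early, 685 to 6918 for mid, and 6.86 to 9201 for late AVFs. Of these markers *Tnnc2* was at 0 in 20 of the 25 libraries, and early AVFs 1 and 10, mid AVF 12, and late AVF 23 had sums of 3816 CPM or more. Their part in the results was not tested beyond leaving out each vessel in turn.

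*Timp1* (ENSMUSG00000001131) lies on chromosome X at 20870166 to 20874735 (GRCm38, plus strand), inside *Syn1* on the opposite strand, with no shared exon bases. *Timp2* (ENSMUSG00000017466) lies on chromosome 11 at 118301069 to 118355740 (minus strand), and *Cep295nl* is nested in it on the same strand without shared exon bases. *Timp3* (ENSMUSG00000020044) lies on chromosome 10 at 86300372 to 86349506 (plus strand) within *Syn3* on the opposite strand, which shares 1733 exon bases with it. *Timp4* (ENSMUSG00000030317) lies on chromosome 6 at 115241892 to 115252205 (minus strand) within *Syn2*, with 90 shared exon bases. The bulk counting is not stated to use strand, so reads from shared bases could not be assigned with certainty. *Syn3* was at 3.28 CPM or less in every library, which cannot show whether reads from shared bases were left out of the *Timp3* counts.

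The promoters of the 3 genes whose bulk levels differed between groups are shown so that the sequences next to their start sites can be compared (RefSeq, GRCm38.p6, 250 bases before to 50 bases after the RefSeq start site, 5′ to 3′ on the gene's strand). Windows are chrX:20869916-20870215 (plus strand) for *Timp1*, chr11:118355362-118355661 (minus strand) for *Timp2*, and chr10:86300162-86300461 (plus strand) for *Timp3*. Capitals mark the matches to the motifs searched.
Timp1: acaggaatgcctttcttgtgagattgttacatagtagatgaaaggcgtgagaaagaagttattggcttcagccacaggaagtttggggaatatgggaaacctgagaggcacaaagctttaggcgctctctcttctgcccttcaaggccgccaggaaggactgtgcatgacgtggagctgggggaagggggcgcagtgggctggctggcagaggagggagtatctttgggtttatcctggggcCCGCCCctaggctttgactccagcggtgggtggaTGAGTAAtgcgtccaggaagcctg
Timp2: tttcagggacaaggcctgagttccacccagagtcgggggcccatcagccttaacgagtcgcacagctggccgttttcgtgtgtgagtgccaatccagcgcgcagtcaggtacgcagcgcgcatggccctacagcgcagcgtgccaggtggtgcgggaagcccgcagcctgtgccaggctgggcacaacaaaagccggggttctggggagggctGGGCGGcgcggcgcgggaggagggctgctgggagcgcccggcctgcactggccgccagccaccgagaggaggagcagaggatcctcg
Timp3: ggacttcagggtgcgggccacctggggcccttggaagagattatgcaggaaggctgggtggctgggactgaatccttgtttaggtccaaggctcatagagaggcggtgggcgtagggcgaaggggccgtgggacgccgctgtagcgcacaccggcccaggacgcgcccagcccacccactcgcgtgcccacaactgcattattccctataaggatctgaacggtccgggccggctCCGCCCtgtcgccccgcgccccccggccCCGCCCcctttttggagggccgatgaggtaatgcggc

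Of the motifs searched on both strands, the GC box (GGGCGG) was found in *Timp1* (bases -8 to -3 from the start site), in *Timp2* (-37 to -32), and at 2 places in *Timp3* (-15 to -10 and 14 to 19), always without overlap with another match. An AP-1-like heptamer (TGAGTAA) was found in *Timp1* (27 to 33) and in none of the other TIMP promoters. The *Timp4* promoter held no match. The AP-1 consensus (TGANTCA), the STAT motif (TTCNNNGAA), and the TATA box (TATAAA) had no match in the 4 windows. Among 32851 promoters of the same 300 bases, 35.7% held the GC box, 2.68% the AP-1-like heptamer, 7.81% the AP-1 consensus, 8.3% the STAT motif, and 13.6% the TATA box. These matches describe the letters of the windows only.

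*Timp1* rose at each time point after anastomosis and was highest in early AVFs. Its level in contralateral veins had a lowest value of 20.7 CPM in vein 34, a median of 49.1, and a highest value of 97.4 in vein 632. In early AVFs the lowest value was 416 CPM in AVF 10, the median 1044, and the highest 2987 in AVF 6. Every early AVF lay above every contralateral vein, and the early AVFs also spread the most among themselves. Mid AVFs 9, 12, 13, 14, and 15 had 315, 229.9, 233, 272, and 299 CPM. Late AVFs 16, 17, 19, 23, and 24 had 187, 274, 223, 189.9, and 271 CPM. Mid and late AVFs overlapped each other, lay above all contralateral veins, and lay below all early AVFs.

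Means of *Timp1* were 52.5 ± 26.0 CPM in contralateral veins (SD, n = 7), 1227 ± 889 in early AVFs (n = 8), 270.0 ± 38.4 in mid AVFs (n = 5), and 229 ± 42.2 in late AVFs (n = 5). Compared with contralateral veins, *Timp1* was 23.4-fold higher early (4.55 on the log2 scale, with an SE of 0.42 and an adjusted *p* of 1.57e-08, edgeR quasi-likelihood test with Benjamini–Hochberg adjustment). It was 5.14-fold higher in mid AVFs (2.36, SE 0.41, adjusted *p* = 0.000264 in edgeR) and 4.36-fold higher in late AVFs (2.12, SE 0.41, adjusted *p* = 0.000917). From early to late AVFs it fell by 2.42 on the log2 scale (SE 0.44, adjusted *p* = 0.00241 in edgeR), while the difference of -2.18 between mid and early AVFs (SE 0.43, adjusted *p* = 0.0131) did not pass the threshold of 0.01. Late and mid AVFs differed by -0.24 (SE 0.44, adjusted *p* = 1), and their ranges overlapped. In whole-vessel RNA, a change in the number of cells that make a transcript and a change in the RNA per cell cannot be told apart.

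The early AVFs with the highest *Timp1* included those that stood apart. AVFs 3, 5, and 6 had 1273 to 2987 CPM, and the other 5 early AVFs had 416 to 1418 CPM (mean 727 ± 419). Platelet markers were also high in the same libraries: the summed level of the 7 markers was 4206, 9604, and 12870 CPM in AVFs 3, 5, and 6 and 475 to 2712 CPM in the other early AVFs. The summed level of 8 neutrophil markers was 2609, 3401, and 4489 CPM in these libraries and 291 to 1482 CPM in the others. Monocyte/macrophage markers (10 genes, all with counts in every library) summed to 34990, 37060, and 31120 CPM in these libraries and to 11930 to 28110 CPM in the other early AVFs. Contralateral veins had sums of 2113 to 8163 CPM, mid AVFs of 11350 to 15660 CPM, and late AVFs of 7779 to 16130 CPM. The summed level of 7 cycling markers was 42.7 to 165 CPM for contralateral veins, 344 to 915 for early, 235 to 342 for mid, and 173 to 265 for late AVFs. The part of these cells in the result was not tested. Without AVFs 3, 5, and 6, *Timp1* was still higher in early AVFs than in contralateral veins (3.73, adjusted *p* = 1.07e-07 in edgeR; 6.55e-33 to 0.000181 over 11 alternatives). The fall from early to late AVFs then lost its call (-1.67, adjusted *p* = 0.022; 1.11e-06 to 1 over 11 alternatives), and it also lost it without late AVF 16, 17, 19, or 24 (adjusted *p* of 0.0103 to 0.0126, between -2.52 and -2.32). Without the 8 libraries whose sex genes went against their label, which leaves 1 late AVF assumed to vary like the other vessels, the late *Timp1* value was 1.84 above contralateral veins and not called (adjusted *p* = 0.603; 7.17e-06 to 0.736 over 11 alternatives).

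**Figure D1:**
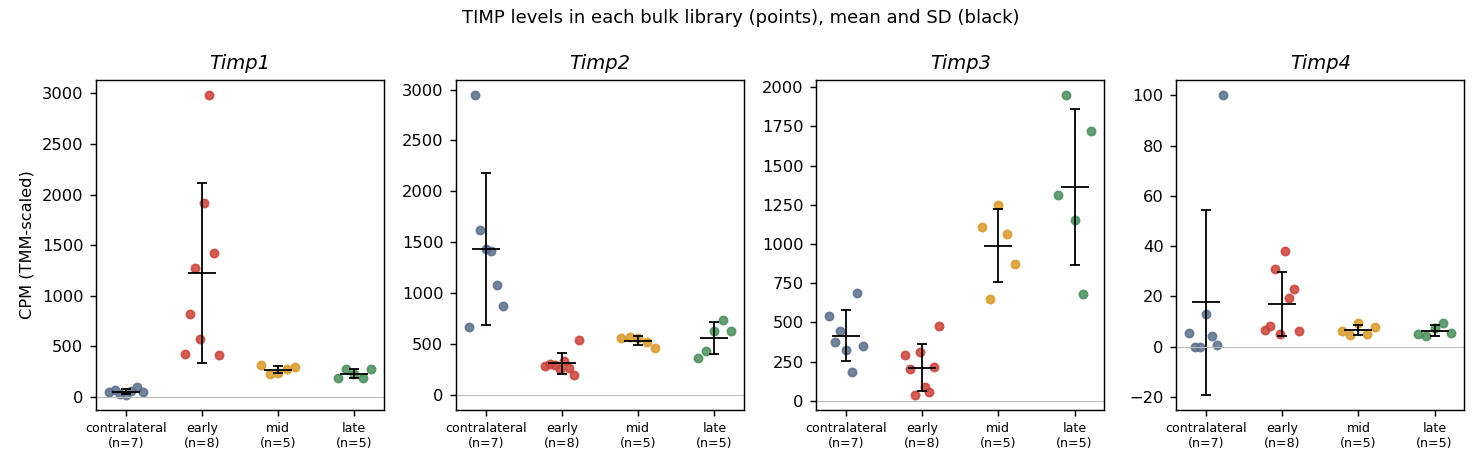
Level of each TIMP gene (CPM, linear axis, each panel on its own scale) in the 25 bulk libraries by group, with each point a vessel and black marks the group mean and SD. *Timp1* peaks in early AVFs (416 to 2987 CPM), *Timp2* is highest in contralateral veins (669 to 2949 CPM), *Timp3* is highest in mid and late AVFs (648 to 1952 CPM), and *Timp4* is low except in 1 contralateral vein (100.2 CPM).

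*Timp2* moved in the opposite direction and was the TIMP gene that fell after anastomosis. In contralateral veins the lowest level was 669 CPM in vein 27, the median 1410, and the highest 2949 in vein 28. In early AVFs the lowest was 195 CPM in AVF 7, the median 286, and the highest 539 in AVF 10. No early AVF reached the lowest contralateral vein. Mid AVFs 9, 12, 13, 14, and 15 had 561, 565, 553, 516, and 459 CPM. Late AVFs 16, 17, 19, 23, and 24 had 363, 427, 625.3, 738, and 629 CPM. Mid AVFs lay below all contralateral veins, whereas late AVF 23 lay above vein 27.

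*Timp2* averaged 1433 ± 747 CPM over contralateral veins (n = 7), 307 ± 102.3 over early (n = 8), 531 ± 44.9 over mid (n = 5), and 557 ± 156 over late AVFs (n = 5). *Timp2* fell by 2.22 on the log2 scale in early AVFs (SE 0.26, adjusted *p* = 5.12e-07 in edgeR), by a log2 fold change of -1.43 in mid AVFs (SE 0.30, adjusted *p* = 0.00168), and by one of -1.36 in late AVFs (SE 0.30, adjusted *p* = 0.00308). The values of 0.79 between mid and early AVFs (SE 0.27, adjusted *p* = 0.119 in edgeR) and 0.86 between late and early AVFs (SE 0.27, adjusted *p* = 0.0566) were not called. Smooth muscle and endothelial markers were lower in the same direction, with every AVF below every contralateral vein in both summed levels, and their part in the result was not tested. Leaving out late AVF 16, 17, or 24 ended the late call (adjusted *p* of 0.0117 to 0.0155, -1.34 to -1.24). The mid and late calls were also lost without the 8 libraries that went against their sex label (-1.44, adjusted *p* = 0.0488, and -1.97, adjusted *p* = 0.359). Over 11 alternatives the adjusted *p* ranged from 8.07e-05 to 0.0634 for mid and from 0.000185 to 0.362 for late AVFs.

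*Timp3* was higher in late than in early AVFs, with contralateral veins between them. Contralateral veins had a lowest value of 185 CPM in vein 35, a median of 374, and a highest value of 689 in vein 632. Early AVFs had a lowest value of 38.0 CPM in AVF 3, a median of 211, and a highest value of 478 in AVF 10. These groups overlapped. Mid AVFs 9, 12, 13, 14, and 15 had 1107, 648, 1249.8, 1063.5, and 875 CPM. Late AVFs 16, 17, 19, 23, and 24 had 1315, 1952, 1152, 679.7, and 1723 CPM. Mid and late AVFs lay above every early AVF, while mid AVF 12 and late AVF 23 lay within the range of the contralateral veins. These 2 vessels also had the highest skeletal muscle marker sums of their groups, 6918 and 9201 CPM, compared with 685 to 2630 CPM in the other mid AVFs and 6.86 to 1361 CPM in the other late AVFs. Late AVFs 17 and 24, with the highest *Timp3*, had the lowest sums among late AVFs, 6.86 and 38.0 CPM, within the range of the contralateral veins. Early AVFs did not share this pattern. AVF 10, with the highest early *Timp3*, had the highest early sum, 4538 CPM, and AVF 3, with the lowest, had 41.8 CPM. The part of muscle in *Timp3* was not tested. Leaving out late AVF 23 gave 1.84 for late AVFs compared with contralateral veins (adjusted *p* = 0.013 in edgeR), and leaving out mid AVF 12 gave 1.39 for mid AVFs (adjusted *p* = 0.0646), neither called.

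*Timp3* averaged 415 ± 164 CPM over contralateral veins (n = 7), 209 ± 150.1 over early (n = 8), 989 ± 233 over mid (n = 5), and 1365 ± 498 over late AVFs (n = 5). *Timp3* rose 6.52-fold from early to late AVFs, or by 2.70 on the log2 scale (SE 0.43, adjusted *p* = 0.00101 in edgeR). The difference of 2.24 between mid and early AVFs (SE 0.43, adjusted *p* = 0.0131) and the difference of 1.72 between late AVFs and contralateral veins (SE 0.44, adjusted *p* = 0.0111 in edgeR) missed the threshold of 0.01. Neither early (-0.99, SE 0.39, adjusted *p* = 0.0725) nor mid AVFs (1.25, SE 0.44, adjusted *p* = 0.0629 in edgeR) were called against contralateral veins.

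The position of late *Timp3* against contralateral veins depended on the setting. It was called at 1.65 without early AVFs 3, 5, and 6 (adjusted *p* = 0.000467) and in 5 other alternatives, and the adjusted *p* ranged from 0.000467 to 0.914 over 11 alternatives. AVFs 3, 5, and 6 had the lowest *Timp3* of the study, 38.0 to 85.3 CPM, compared with 205 to 478 CPM in the other early AVFs. Without them mid AVFs were also called (1.19, adjusted *p* = 0.00702 in edgeR, where 11 alternatives gave 0.00702 to 0.215), and the rise from early to late AVFs stayed called (2.18, adjusted *p* = 0.00264). Without the 8 libraries that went against their sex label, the rise from early to late AVFs was 2.85 and not called (adjusted *p* = 0.634; 6.41e-07 to 0.634 over 11 alternatives). The summed level of fibroblast markers was 21700, 11060, and 5752 CPM in early AVFs 3, 5, and 6. It was lowest, 3542 CPM, in early AVF 7, which was not among the vessels with the lowest *Timp3*. The sums were 26030 to 38990 CPM in the other early AVFs, 16700 to 42950 CPM in contralateral veins, and 33070 to 69840 CPM in mid and late AVFs. The part of fibroblast number in the result was not tested.

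*Timp4* was the least abundant TIMP gene in nearly every vessel. Contralateral veins 28 and 31 had 0 counts, which allows up to 0.187 and 0.131 CPM (3 counts), and the median vein had 4.28 CPM. Vein 633 had 100.2 CPM from 2905 counts, far above vein 34, the next, at 12.9 CPM. Early AVFs ranged from 5.06 to 38.1 CPM with a median of 13.7, and the highest values were in AVFs 5 (38.1), 3 (30.9), and 7 (22.8). Mid AVFs ranged from 4.52 to 9.60 CPM and late AVFs from 4.25 to 9.63 CPM, all within the range of the contralateral veins. No comparison of *Timp4* was called, and against contralateral veins the early value was -0.04 (SE 0.99, adjusted *p* = 0.985 in edgeR), the mid value -1.39 (SE 1.18, adjusted *p* = 0.505), and the late value -1.47 (SE 1.18, adjusted *p* = 0.478). These values rested on vein 633: without it they were 2.14, 0.79, and 0.71, none called (adjusted *p* of 0.111, 0.665, and 0.703 in edgeR). Skeletal muscle markers in vein 633 summed to 6.14 CPM, within the range of the other contralateral veins, and adipocyte markers to 919.9 CPM (469 to 3205 CPM over contralateral veins, 27.8 to 2588 over early, 194 to 483 over mid, and 166 to 445 over late AVFs). *Syn2*, which overlaps *Timp4*, was at 2.86 CPM in vein 633 and at 168 CPM in early AVF 7.

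Against contralateral veins, 2 of the 4 TIMP genes were called in early AVFs (*Timp1* up, *Timp2* down), where 12.6% of the 12673 genes tested were called. The same genes were the 2 called in mid AVFs (6.05% of all genes) and the 2 called in late AVFs (5.33%). In late compared with early AVFs, *Timp1* and *Timp3* were called (3.01% of all genes). None of the 4 was called between mid and early AVFs (0.00789%, 1 gene, with 1614 genes at an unadjusted *p* under 0.05 in edgeR), although DESeq2 called 472 genes and the edgeR likelihood ratio test 356, *Timp1* and *Timp3* among them, and limma-voom 8, *Timp3* among them (2.67, adjusted *p* = 0.00291). None was called between late and mid AVFs, where 0% of genes were called (39 at an unadjusted *p* under 0.05, 1 called by DESeq2 and none by limma-voom). Group ranges did not overlap for 2 TIMP genes in early AVFs (*Timp1*, *Timp2*; 6.82% of all genes), for the same 2 in mid AVFs (12%), and for *Timp1* in late AVFs (10.5%), always against contralateral veins. Against early AVFs, ranges did not overlap for *Timp1* and *Timp3* in mid AVFs (8.51%) and in late AVFs (15.5%). The comparisons with contralateral veins share those veins, and the comparisons with early AVFs share those AVFs. No TIMP gene, including the X-linked *Timp1* (-0.03, SE 0.29), differed between the labelled sexes at an adjusted *p* of 0.05, where 0% of genes passed in edgeR (79 at an unadjusted *p* under 0.05). That test used labels that 8 libraries went against. In the other 17 libraries *Timp1* differed by -0.22 (SE 0.38, adjusted *p* = 1 in edgeR), with 5 of 12464 genes called.

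**Figure D2:**
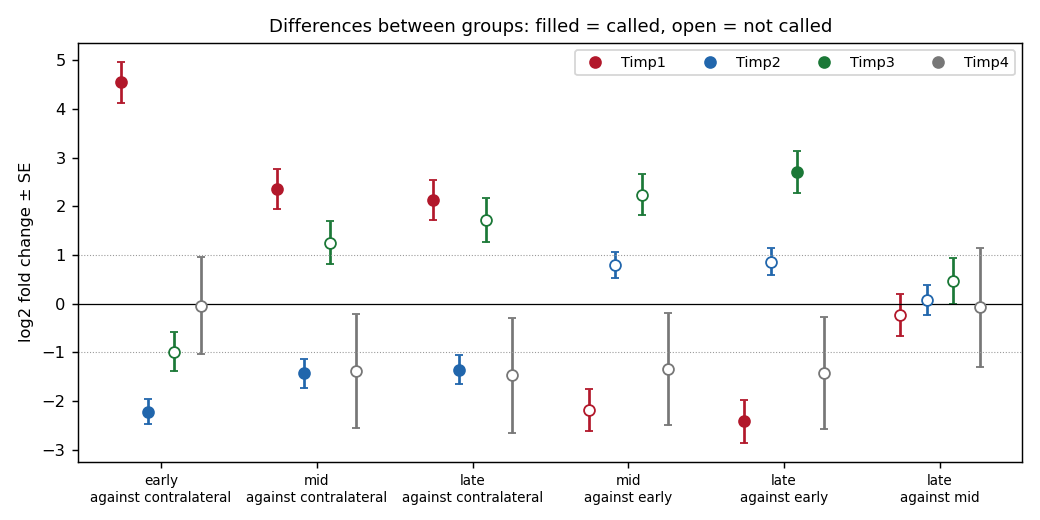
Log2 fold change of each TIMP gene in 6 comparisons between groups (points, with SE as bars; dotted lines mark the fold threshold of 1 in either direction), filled where called by the edgeR quasi-likelihood test and open where not. *Timp1* is filled in all 3 comparisons with contralateral veins (4.55, 2.36, and 2.12), *Timp2* is filled below 0 in the same 3 (-2.22, -1.43, and -1.36), and *Timp3* is filled for late against early AVFs (2.70).

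To compare the genes with each other, CPM was divided by the length of each gene's longest coding transcript. On this scale the leading TIMP transcript of bulk RNA changed with time, unlike that of the single-cell libraries given below. *Timp2* made up 69.5 ± 13.5% of the summed TIMP level per kb in contralateral veins (n = 7), from 52.0% in vein 27 to 83.5% in vein 28, and was the first in all of them. *Timp1* made up 86.8 ± 10.95% in early AVFs (n = 8), from 65.5% in AVF 10 to 97.5% in AVF 6, compared with 11.7 ± 5.62% in contralateral veins. The shares of *Timp1* in early AVFs and contralateral veins were far from overlapping.

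In mid AVFs *Timp1* held 46.4 ± 4.85%, *Timp3* 31.5 ± 5.28%, and *Timp2* 21.9 ± 3.38% (n = 5). In late AVFs *Timp1* held 37.1 ± 1.03%, *Timp3* 40.4 ± 9.54%, and *Timp2* 22.3 ± 8.59% (n = 5). *Timp1* and *Timp3* therefore could not be ordered in late AVFs: *Timp3* was first in AVFs 16, 17, and 24, and *Timp1* in AVFs 19 and 23. *Timp4* held less than 1% in every library except vein 633, where it held 4.75%. The summed TIMP level per kb was 537 ± 199 CPM per kb for contralateral veins, 1519.9 ± 975 for early, 659 ± 70.1 for mid, and 699.6 ± 134.99 for late AVFs. With the merged length of all exons in place of the transcript, the late shares were 45.2% for *Timp1* and 29.0% for *Timp3*.

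**Figure D3:**
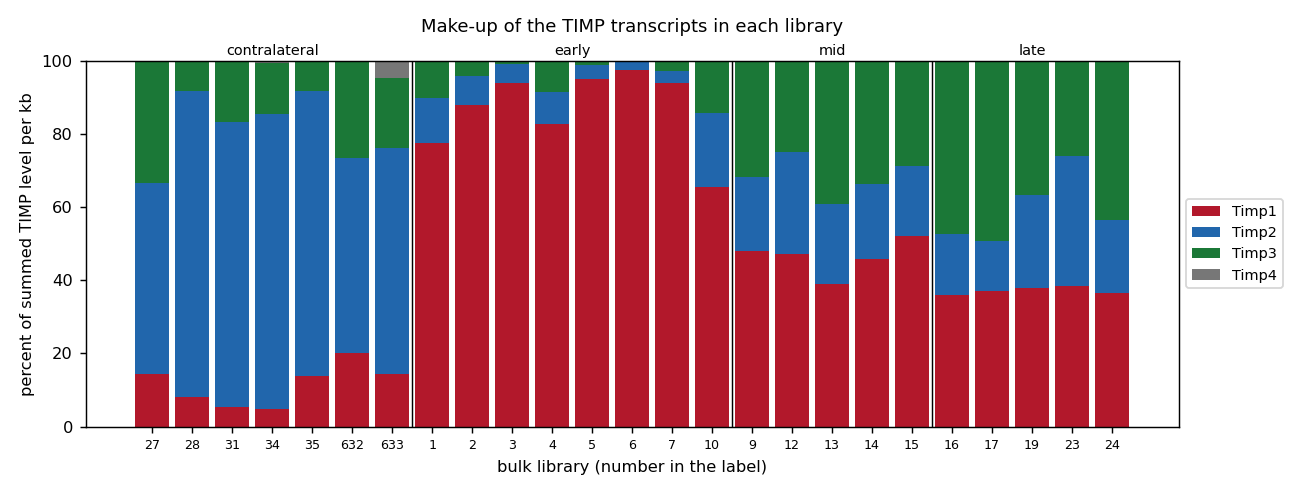
Share of each TIMP gene in the summed TIMP level per kb (percent, stacked bars from 0 to 100) in each of the 25 bulk libraries, ordered by group, with the vessel number of the label under each bar. *Timp2* fills most of the contralateral bars (52.0 to 83.5%), *Timp1* most of the early bars (65.5 to 97.5%), and *Timp3* grows to 25.7 to 49.2% in late AVFs.

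Over the 25 libraries, log2 CPM of *Timp1* and *Timp2* correlated at r = -0.84, and their deviations from the group means at -0.16. For *Timp1* and *Timp3* the values were -0.42 and -0.48, and for *Timp2* and *Timp4* -0.62 and -0.50. The libraries share the group structure, so these values are descriptive. The genes with the most similar pattern to *Timp1* were *Gm19951* (r = 0.951), *Lgmn*, a lysosomal protease (0.945), and *Tarm1*, a receptor of myeloid cells (0.944). Within groups they were *Ppdpf* (0.888), *Smim4* (0.872), and *Ptma* (0.861). *Timp2* was most similar to *Cavin1*, a coat protein of caveolae (0.919), *Dock9* (0.913), and *Tm7sf3* (0.908), and within groups to *Nab1* (0.859), *Marveld1* (0.854), and *Mark3* (0.786).

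*Timp3* was most similar to *Fbln5*, an elastic fiber glycoprotein (r = 0.92), *2900097C17Rik* (0.903), and *9530068E07Rik* (0.891). The mean of *Fbln5* was 199 CPM in early AVFs, 382 in contralateral veins, 619.7 in mid AVFs, and 882 in late AVFs, the same order of groups as *Timp3*. *Fbln5* was picked by its correlation over these same libraries, so this order adds no separate likeness. Within groups *Timp3* was most similar to *Tmem167b* (0.851), *Dcstamp* (0.827), and *Podn* (0.818). *Timp4* was most similar to *Gm42659* (0.928), *Hspbp1* (0.922), and *Snrnp25* (0.917), and within groups to *Gm42659* (0.918), *Timm17b* (0.914), and *Hspbp1* (0.912).

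In the single-cell libraries, 16893 of 26438 barcodes passed the filters of the study, 6319 from contralateral veins, 4753 from early AVFs, and 5821 from late AVFs, with medians of 2751, 8951, and 15425 UMIs per cell. This is more cells than the study shows, so the names of cell classes, which were rebuilt here from marker genes, may not match its own. Kept barcodes held 29211542 of 40304049 UMIs for contralateral veins, 55802323 of 113085652 for early AVFs, and 98421123 of 137047537 for late AVFs. Barcodes with more than 6000 genes were left out, and no alternative varied this limit. Shares of cells and of UMIs by class below therefore cover kept cells only, with early AVFs the most affected. Kept libraries shared 5 or 6 barcodes in each pair. The doublet caller marked 0, 2, and 120 cells and so did not work in 2 of the 3 libraries, and no doublets were removed. With 1 library per condition there was no test, and the 95% intervals below cover counting error only. Different clusters held most fibroblast-like cells of contralateral veins (cluster 2, 1777 of 1895 cells) and of early (cluster 1, 395 of 400) and late AVFs (cluster 1, 1894 of 1943), and most monocyte/macrophage-like cells of contralateral veins (cluster 11, 538 of 618) and of AVFs (cluster 3).

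Among the named classes, *Timp1* was highest in fibroblast-like cells in each library. Fibroblast-like cells had 103 CPM of *Timp1*, from the summed UMIs of the class, in contralateral veins (95% Poisson interval 97.5 to 109), 746 in early AVFs (730.3 to 762), and 264 in late AVFs (260 to 269). The early level was 7.25-fold that of contralateral veins (6.84 to 7.68) and the late level 2.57-fold (2.42 to 2.72). Smooth muscle-like cells had 21.2 CPM in contralateral veins (8.54 to 43.8, 7 UMIs in 34 cells), 362 in early AVFs (345 to 379), and 190.2 in late AVFs (183 to 198). Endothelial-like cells had 11.8 (8.21 to 16.4), 100.6 (78.3 to 127), and 37.1 (22.3 to 57.9). In fibroblast-like and smooth muscle-like cells the order was early, late, contralateral. The late endothelial-like value came from 19 UMIs in 75 cells, compared with 22 UMIs in 73 B cell-like cells, and is read as background.

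B cell-like cells, which should lack the gene, also had *Timp1* UMIs: 2.72 CPM in contralateral veins, 33.7 in early AVFs (16.8 to 60.2), and 17.4 in late AVFs (10.9 to 26.3). Monocyte/macrophage-like cells were at 2.81, 33.7 (30.3 to 37.4), and 20.4 (17.9 to 23.2), and T or NK cell-like cells at 2.39, 37.3, and 21.5, levels near those of the B cell-like cells. The T or NK cell-like levels are read as background. In UMIs, early monocyte/macrophage-like cells had 366 in 761 cells (34.6% of cells), compared with 11 in 40 B cell-like cells (20%). These early cells were thus near background in CPM but above it in UMIs per cell, and which measure applies was not tested. Cluster 0, led by *Mmp12* and *Cxcl3* and left unnamed because *Ccr7*, a dendritic cell marker, was among its leading genes, was above the B cell-like level in early AVFs, at 90.6 (86.5 to 94.8), and in late AVFs, at 54.7 (51.1 to 58.5). Neutrophil-like cells had 61.2 (53.0 to 70.2) in early AVFs and platelet-like cells 152 (105 to 213), but erythroid-like cells, which should lack the gene, had 62.9 (45.0 to 85.7). In UMIs, early neutrophil-like cells had 202 in 786 cells, platelet-like cells 33 in 133, erythroid-like cells 40 in 144, and B cell-like cells 11 in 40, so none of these is read as expression. Cluster 6, unnamed because its cells are shallow (median 1002.5 UMIs) and led by *Pth*, *Cthrc1*, and *Timp1*, had 915 in early AVFs (872 to 961).

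Thinned to 2000 UMIs per cell, *Timp1* was found in 18.3% of fibroblast-like cells in contralateral veins, 59.4% in early AVFs, and 29.8% in late AVFs, leaving out 619, 8, and 12 shallower cells. Without thinning the shares were 33.1%, 93.8%, and 84.7%, at median depths of 4137, 31979.5, and 25100 UMIs. In B cell-like cells the thinned shares were 0.935%, 10.5%, and 3.08% (unthinned 0.789%, 20%, and 20.5%, at 2339, 4114, and 5780 UMIs). Fibroblast-like cells carried 93.3% of all *Timp1* UMIs in contralateral veins (30.0% of cells), 58.3% in early AVFs (8.42% of cells), and 76.4% in late AVFs (33.4% of cells). In early AVFs cluster 0 carried 12.7%, smooth muscle-like cells 12.2%, and cluster 6 11.3% of the UMIs.

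*Timp2* was the most abundant TIMP gene of fibroblast-like cells in all 3 libraries. Over all kept cells it was also first in each, at 1278 CPM in contralateral veins, 543 in early AVFs, and 1259.5 in late AVFs. In the same order *Timp1* had 48.6, 260, and 174 CPM and *Timp3* 377, 246, and 475 CPM. Bulk RNA differed, with *Timp1* first per kb in early AVFs and *Timp2* lower in late AVFs than in contralateral veins. The reason for this difference between the assays was not tested. Fibroblast-like cells had 2433 CPM of *Timp2* in contralateral veins (2406 to 2460), 1033 in early AVFs (1014 to 1052), and 2003 in late AVFs (1991 to 2016). Within cluster 1 the levels were 2584, 1029.7, and 2002 CPM, in the same order. The early level over both clusters was 0.425 times that of contralateral veins (0.415 to 0.434) and the late level 0.823 times (0.813 to 0.834). Endothelial-like cells had 663 (634 to 692), 238 (203 to 277), and 692 (622 to 768), with early AVFs again the lowest. Smooth muscle-like cells went the other way, with 470.2 in contralateral veins (399 to 550.4), 835 in early AVFs (809 to 861), and 1007 in late AVFs (989 to 1024).

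In CPM, and unlike *Timp1*, *Timp2* was well above background in monocyte/macrophage-like cells. Their level was 701 CPM for contralateral veins (672 to 731), 664 for early AVFs (649 to 679), and 469.5 for late AVFs (457 to 482), whereas B cell-like cells had 96.0, 27.5, and 40.3. The contralateral value came mostly from cluster 11 (778 CPM). Within cluster 3 the levels were 409.6 for contralateral veins (363 to 461), 639.6 for early AVFs (624 to 655), and 463 for late AVFs (451 to 476), so the direction from contralateral veins to both early and late AVFs turned, with intervals that overlap for late AVFs. In early AVFs monocyte/macrophage-like cells and cluster 0 carried 23.8% and 18.0% of *Timp2* UMIs, and fibroblast-like cells 38.7%. Fibroblast-like cells carried 83.9% in contralateral veins and 80.0% in late AVFs. After thinning, *Timp2* was found in 93.4%, 77.8%, and 95.1% of fibroblast-like cells (87.9%, 97.8%, and 99.9% without thinning).

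*Timp3* was highest in smooth muscle-like, endothelial-like, and Schwann cell-like cells. The level in smooth muscle-like cells was 1371 CPM for contralateral veins (1248 to 1504), 1606 for early AVFs (1570 to 1642), and 1782 for late AVFs (1759 to 1805). Endothelial-like cells had 1093 (1055 to 1131), 397 (351 to 447), and 2138 (2013 to 2268), the latter 2 from 72 and 75 cells. Fibroblast-like cells had 397 (387 to 408), 379 (368 to 391), and 426 (420.3 to 432), an early level of 0.954 times (0.916 to 0.994) and a late level of 1.07 times (1.04 to 1.11) that of contralateral veins. These sums mix clusters: within cluster 1 *Timp3* was 725 CPM for the 118 contralateral cells (685 to 767), 377 for early (366 to 388), and 424 for late AVFs (418.5 to 430.1), and within cluster 2 it was 349 for contralateral veins (338 to 359.7) and 612 for the 49 late cells (544 to 685). Monocyte/macrophage-like cells, at 21.0, 13.4, and 25.4, were near B cell-like cells, at 26.3, 12.2, and 25.3.

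The cells that carried *Timp3* differed between libraries. In contralateral veins fibroblast-like cells carried 46.5% of *Timp3* UMIs, endothelial-like cells 29.5%, Schwann cell-like cells 17.4%, and smooth muscle-like cells 4.11% (0.538% of cells). Smooth muscle-like cells carried 57.4% in early AVFs (4.75% of cells) and 48.5% in late AVFs (8.68% of cells). The share of fibroblast-like cells was 31.4% in early AVFs and 45.1% in late AVFs, the latter near their contralateral share. The pools, the digestion, and the depth differ between libraries and cannot be told apart from the condition, and in bulk RNA the smooth muscle markers were lower in every AVF than in every contralateral vein, unlike the share of smooth muscle-like cells.

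*Timp4* was found almost only in mural and endothelial-like cells. Smooth muscle-like cells had 84.9 CPM in contralateral veins (56.5 to 123, 28 UMIs), 35.5 in early AVFs (30.4 to 41.1), and 25.4 in late AVFs (22.7 to 28.3). Endothelial-like cells had 27.6 (21.97 to 34.3, 82 UMIs) in contralateral veins, 4.37 in early AVFs (0.902 to 12.8, 3 UMIs), and 0 UMIs in late AVFs, which allows up to 5.85 CPM (3 UMIs). The 82 contralateral UMIs came from 24 of 810 endothelial-like cells (2.96%), so few cells carried the level and share of this class. *Timp4* was found in 10 of the 34 contralateral smooth muscle-like cells (29.4%). In contralateral veins endothelial-like cells carried 67.2% and smooth muscle-like cells 23.0% of 122 *Timp4* UMIs. Smooth muscle-like cells carried 94.1% of 185 UMIs in early AVFs and 94.4% of 342 in late AVFs. Fibroblast-like cells had 6, 0, and 9 *Timp4* UMIs, against 1, 0, and 0 in B cell-like cells.

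**Figure D4:**
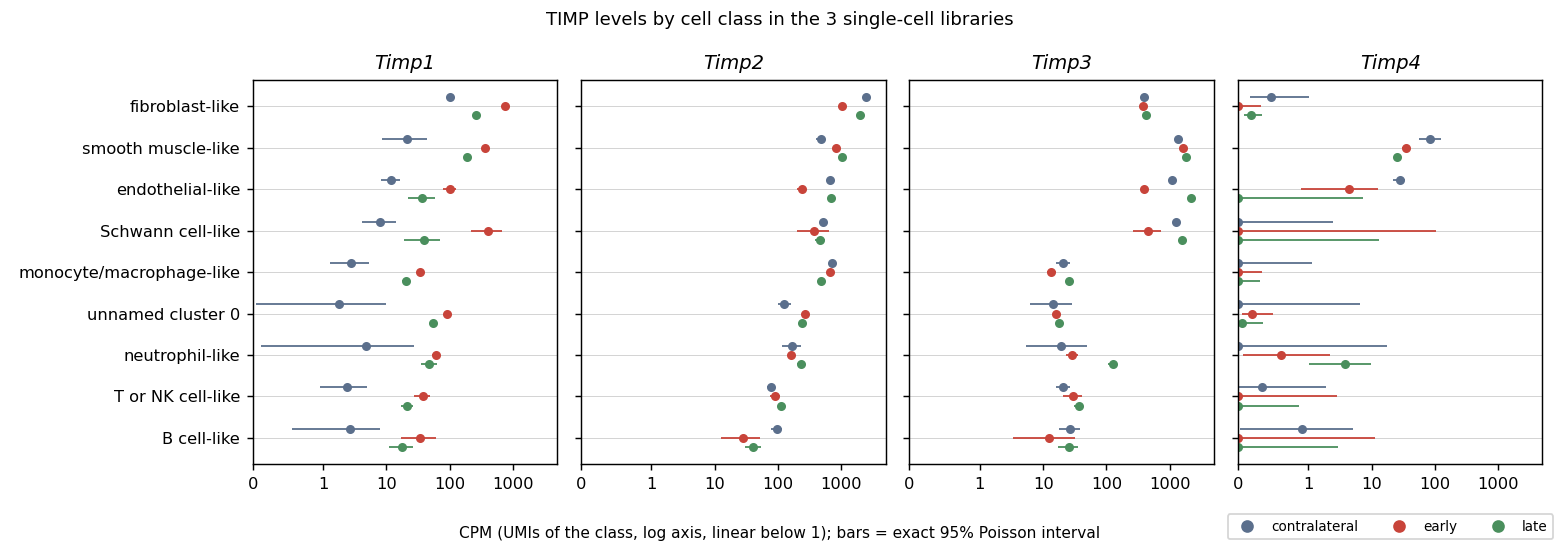
Level of each TIMP gene (CPM of the summed UMIs, log axis, linear below 1) in 8 named cell classes and cluster 0, for the contralateral, early, and late single-cell libraries, with exact 95% Poisson intervals as bars. *Timp1* is higher in early AVFs than in contralateral veins in each class plotted, at 746 in fibroblast-like and 33.7 in B cell-like cells, *Timp2* is led by fibroblast-like cells (1033 to 2433), *Timp3* by vessel wall and Schwann cell-like cells, and *Timp4* by smooth muscle-like cells (25.4 to 84.9).

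Fibroblast-like cells were clustered again to see how the TIMP genes vary among them. A sub-cluster led by *Spp1*, *Ptn*, and *H19*, with markers of activated fibroblasts such as *Tnc* and *Lrrc15* among its leading genes, held 231 early and 24 late cells and had the highest *Timp1*, at 893 CPM in early AVFs (870.1 to 916) and 1168 in late AVFs (1098 to 1242). It also had the lowest *Timp2* among early sub-clusters, at 797 (776 to 819). A sub-cluster led by *Thbs4*, *Comp*, and *Cilp*, matrix genes, held 1236 late, 105 early, and 30 contralateral cells, with *Timp1* at 219, 576, and 122. Its *Timp2* was 1788, 1487, and 1551, and its *Timp3* was 520 (512 to 528), 980 (946 to 1015), and 502 (426 to 587).

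The sub-cluster led by *Smpd3* and *Dpp4*, Pi16 adventitial-like by its markers, held 140 contralateral cells and had the lowest *Timp1*, at 18.2 (11.7 to 26.8), with the highest *Timp2*, at 3275 (3180 to 3372), and *Timp3* at 1111 (1056 to 1168). Another sub-cluster with these markers, led by *Pla1a*, *Lcn2*, and *Serpinb2*, held 46 early and 626 late cells, with *Timp3* at 65.6 (53.0 to 80.4) and 284 (276 to 292). Most other contralateral fibroblast-like cells fell into a sub-cluster led by *Inmt* (708 cells) or a quiescent-like one led by *C7* and *Gdf10* (606 cells). These had *Timp1* at 80.8 and 155, *Timp2* at 1950 and 2993, and *Timp3* at 405 and 155 CPM. The leading genes of the *Inmt* sub-cluster included hemoglobin genes (*Hbb-bs*, *Hbb-bt*, *Hba-a1*, and *Hba-a2*) beside 2 markers of quiescent fibroblasts. It is therefore given no class name here. Of the 7 sub-clusters, 4 held 20 or more cells of more than 1 library, and in the other 3, all of contralateral veins, the sub-cluster and the library cannot be told apart.

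**Figure D5:**
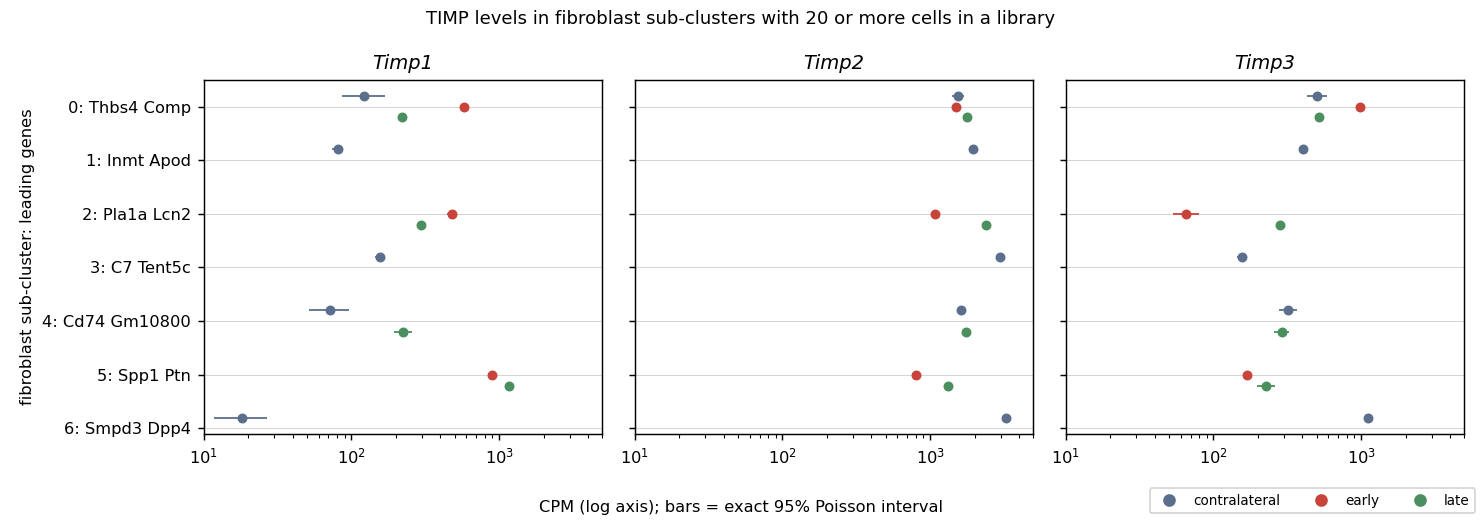
Level of *Timp1*, *Timp2*, and *Timp3* (CPM, log axis) in each fibroblast sub-cluster, marked by 2 leading genes other than hemoglobin genes, for libraries with 20 or more cells in it, with exact 95% Poisson intervals as bars. *Timp1* spans 18.2 in the *Smpd3* sub-cluster to 1168 in the *Spp1* sub-cluster, whereas *Timp2* stays between 797 and 3275.

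The proteases that TIMPs inhibit were counted on the same libraries. Of 23 MMP genes, 14 were tested: 5 rose and 2 fell in early AVFs, 4 rose and 1 fell in mid AVFs, and 4 rose and 1 fell in late AVFs compared with contralateral veins, while none was called between late and early AVFs. Over all genes tested, 12.6%, 6.05%, and 5.33% were called in the 3 comparisons with contralateral veins and 3.01% between late and early AVFs. The median MMP log2 fold changes were -0.75, -0.06, and 0.29 (over all genes -0.01, -0.10, and -0.09). *Mmp8*, neutrophil collagenase, rose from 0.102 ± 0.269 to 49.4 ± 36.3 CPM in early AVFs (8.84, SE 1.25, adjusted *p* = 8.44e-06 in edgeR). Only contralateral vein 27 had *Mmp8* counts (18), so the size of its folds rests on that vein, while every early AVF had at least 6.11 CPM. *Mmp12*, macrophage elastase, rose from 4.25 ± 9.34 to 180.4 ± 112 CPM (5.40, SE 0.96, adjusted *p* = 0.000152) and stood at 643 ± 127 CPM in mid and 359.6 ± 144 CPM in late AVFs (7.24 and 6.40, adjusted *p* = 3.82e-05 and 0.000156). Contralateral vein 632 held 647 of the 748 contralateral *Mmp12* counts, so the size of its folds rests largely on that vein. Every early AVF had at least 49.98 CPM of *Mmp12*. *Mmp8* and *Mmp13*, a collagenase, completed the leading pairs in mid (5.35) and late AVFs (4.98), and *Mmp13* had counts in 2 of the 7 contralateral veins.

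*Mmp3*, stromelysin-1, fell from 858 ± 358 to 179.9 ± 100.3 CPM in early AVFs (-2.25, adjusted *p* = 1.04e-05 in edgeR). *Mmp17*, a membrane-anchored MMP, fell from 91.8 ± 69.3 to 5.69 ± 2.42 CPM (-4.01, adjusted *p* = 6.42e-07) and stayed lower in mid (-3.10) and late AVFs (-2.17). *Mmp14* and *Mmp2*, named for their complex with TIMP2 after their values had been seen, differed in their call. *Mmp14* rose from 86.6 ± 55.3 to 234 ± 88.2 CPM in early AVFs (1.43, adjusted *p* = 0.00912 in edgeR), 362 ± 117 in mid, and 344 ± 60.8 in late AVFs. *Mmp2* averaged 340.2 ± 267 CPM over contralateral veins, 174 ± 166 over early, 695 ± 136 over mid, and 889 ± 378 over late AVFs and was not called in any comparison with contralateral veins (adjusted *p* of 0.384, 0.477, and 0.318).

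Of 9 ADAM genes, 8 were tested, with 3 called early, 2 mid, and 2 late, beside the same shares of all genes: *Adam8*, of leukocytes, and *Adam12*, of mesenchymal cells, rose at all 3 time points (6.47 and 5.31 in early, 5.47 and 5.15 in mid, and 4.81 and 3.78 in late AVFs), *Adam33* fell in early AVFs (-2.60, adjusted *p* = 0.00153 in edgeR), and none was called between late and early AVFs. Contralateral vein 633 held 285 of the 357 contralateral *Adam8* counts, and vein 35 held 395 of the 518 *Adam12* counts. The size of these folds therefore rests largely on 1 vein each, while every early AVF had at least 65.2 and 41.1 CPM. The median ADAM values were 0.57, 0.91, and 0.89. Of 18 ADAMTS genes, 16 were tested, and 1 was called up at each time point, beside 12.6%, 6.05%, and 5.33% of all genes called in either direction: *Adamts19*, at 0 counts in all contralateral veins and at 4.22 ± 3.96, 8.24 ± 5.88, and 3.38 ± 1.52 CPM early, mid, and late. *Adamts10*, a protease that binds fibrillin microfibrils, fell in early AVFs (-1.43, adjusted *p* = 0.00213 in edgeR) and rose from early to late AVFs (1.57, adjusted *p* = 0.00603). The median ADAMTS values were -0.05, 0.59, and 0.41.

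Of 8 genes for TIMP binding and clearance and for other metalloproteinase inhibitors, 7 were tested, with 2 called early, none mid, and 1 late, beside 12.6%, 6.05%, and 5.33% of all genes. *Cd63*, a surface partner of TIMP1, rose 2.12-fold in early AVFs, from 763 ± 130.3 to 1615 ± 409 CPM (1.08, adjusted *p* = 3.49e-05 in edgeR). *Efemp1*, a fibulin that binds TIMP3, fell from 456 ± 181 to 141 ± 81.0 CPM (-1.69, adjusted *p* = 0.001). *Lrp1*, the endocytic receptor that clears TIMPs, was called in late AVFs (1.20, adjusted *p* = 0.00762), from 297 ± 156 to 684 ± 172 CPM. None was called between late and early AVFs. The list medians were -0.58, -0.40, and -0.20.

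Of 8 plasminogen activation genes, 5 were tested, 3 rose early, 1 mid, and 2 late, and none fell (12.6%, 6.05%, and 5.33% of all genes called). The plasminogen activator inhibitor *Serpinb2* led (9.89, 8.68, and 7.51 at the 3 time points in order), with *Serpine2*, protease nexin-1, in late AVFs (2.51, adjusted *p* = 0.00135 in edgeR). *Serpinb2* had 16 counts in all over contralateral veins, in 4 of the 7, so the size of its folds rests on very few counts. Every early AVF had at least 39.1 CPM of *Serpinb2*. Of 13 known inducers of *Timp1* and their transcription factors, 10 were tested, 4 rose early, 3 mid, and 2 late, and none fell, beside the same shares of all genes. *Tnf* averaged 11.9 ± 7.67 CPM in early AVFs compared with 0.118 ± 0.311 in contralateral veins (6.59, adjusted *p* = 0.000187 in edgeR), and was called in mid (5.22) and late AVFs (4.47). Only contralateral vein 632 had *Tnf* counts (21), so the size of these folds rests on that vein, while every early AVF had at least 3.27 CPM. *Osm*, a cytokine of the interleukin-6 family, was called in early (5.32, 9.32 ± 4.53 CPM) and mid AVFs (4.67), with counts in 2 of the 7 contralateral veins, and *Tgfb1* was second in late AVFs (3.75). *Tgfb1* had 55 counts in all over contralateral veins, in 5 of the 7, so the size of its fold rests on few counts. No gene of the plasminogen or inducer lists was called between late and early AVFs. List medians were 2.23, 1.77, and 2.23 for plasminogen activation and 1.87, 1.42, and 1.10 for inducers. Of the 4 genes that overlap a TIMP gene, 2 were tested and *Syn1* was called up at all 3 time points (12.6%, 6.05%, and 5.33% of all genes called). *Syn1* had 2 counts each in contralateral veins 27 and 31 and 0 in the other 5. Its level was 43.3 CPM in early AVF 7 and 1.42 to 5.77 in the other early AVFs, 1.52 to 4.42 in mid AVFs, and 29.6 in late AVF 16 and 2.49 to 13.5 in the other late AVFs.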

How the data were processed

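For bulk RNA sequencing, the authors deposited unnormalized read counts per gene for 25 libraries, 1 per vessel, from poly(A) RNA. For 3 single-cell libraries, the matrices the authors deposited hold UMI counts by barcode, made with Cell Ranger 6.0.2 as their headers state. The submitters' processing notes name STAR, mm10, and GRCm38. The counting method was not given in the sources used here. Groups came from the deposited labels.

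The 12673 of 56980 genes whose DESeq2-normalized counts averaged 100 or more were tested in edgeR 4.0.16 (R 4.3.3), with TMM scaling and a quasi-likelihood fit of all 25 libraries without covariates (common dispersion 0.710). A gene was called at a Benjamini–Hochberg adjusted *p* under 0.01 and a log2 fold change of 1 or more in either direction, and at an adjusted *p* under 0.05 for sex. *P* values measure the spread among these vessels. On simulated counts for early AVFs and contralateral veins (12673 genes), 32 of 100 genes changed by 2 and 61 of 100 changed by 3 on the log2 scale were called, with 1 of 12473 unchanged genes. Total counts per library ranged from 20254173 to 67457501.

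Barcodes kept had 200 to 6000 genes and no more than 10% mitochondrial UMIs, and 12 principal components of 2000 variable genes, without TIMP and marker genes, were clustered at resolution 0.5 (scanpy 1.11.5, leidenalg 0.10.2) and named from marker genes. UMIs were summed per library and class, with exact Poisson and Clopper–Pearson intervals (95%). PCR reads of bulk libraries are not independent molecules, so floors cover counting error only. Fibroblast-like cells were clustered again at resolution 0.3.

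The TIMP genes and all gene lists were chosen with earlier results of these data known. From each list, the 2 called genes with the largest change in each direction were named, except for an item not reported here, and for likeness the 3 genes with the highest Pearson correlation of log2 CPM (prior count 2). The alternatives were other size factors, DESeq2 1.42.0, an edgeR likelihood ratio test, limma-voom (limma 3.58.1), other filters, sex as a term, libraries labelled female alone, each library left out, other cell filters, doublets removed, resolution 1.0, and marker genes allowed in clustering. The fits without the libraries that went against their sex label, with and without a sex term, the fit without early AVFs with a TMM factor under 0.9, and the merged exon length were chosen after seeing the data.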

Additional observations from a re-analysis of the deposited data

Results flagged for a closer look

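Among the 16 sets of a TIMP gene in a group, 3 held a vessel far from the others of its group, and chance alone gives about 1 in 20. *Timp2* was 2949 CPM in contralateral vein 28, compared with 1620 CPM in the next highest vein. This vein also had the fewest genes detected among contralateral veins, 11958, and a TMM factor of 0.794. *Timp2* was 539 CPM in early AVF 10, compared with 335 CPM in the next highest early AVF, and the same vessel had the highest *Timp3* (478 CPM) and the lowest *Timp1* (416 CPM) among early AVFs and went against its sex label. Its skeletal muscle markers summed to 4538 CPM, the highest among early AVFs, followed by 3816 CPM in early AVF 1 and 5.55 to 493 CPM in the others, and their part was not tested. *Timp4* was 100.2 CPM in contralateral vein 633, compared with 12.9 CPM in the next highest vein.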

How the results depend on the processing

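The rise of *Timp1* and the fall of *Timp2* in early AVFs and the values with no call in early *Timp3* kept their direction and their side of the threshold in all 11 alternatives and in each of 25 fits with 1 library left out. The self-test called 32 of 100 genes changed by 2 on the log2 scale, so calls missed at this number of vessels are frequent. No paired analysis was possible because the groups share no replicate numbers.

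Against contralateral veins, *Timp4* turned positive with limma-voom (3.14 early, 2.02 mid, and 1.93 late) and in libraries labelled female (1.88, 0.76, and 0.33), and in early AVFs with sex as a term (0.16) or without the 8 libraries that went against their sex label and with a sex term (0.13). Leaving out 1 library, *Timp4* ranged from -0.37 to 2.14 in early, from -1.62 to 0.79 in mid, and from -1.71 to 0.71 in late AVFs. In libraries labelled female, without the 8 libraries, and without them with a sex term, *Timp2* was not called in mid (-1.61, -1.44, and -1.42) or late AVFs (-1.71, -1.97, and -1.99), nor was the late change against early AVFs for *Timp1* (-2.84, -2.68, and -2.77) or *Timp3* (2.55, 2.85, and 3.21). *Timp1* was not called in late AVFs in the same settings (2.42, 1.84, and 1.75) or with limma-voom (2.25), nor in mid AVFs without the 8 libraries with a sex term (2.43). These fits hold fewer vessels, and the libraries labelled female include early AVF 10, mid AVF 14, and late AVFs 17 and 19, whose sex genes went against the label. Without early AVFs 3, 5, and 6, *Timp1* was not called between late and early AVFs (-1.67). *Timp3* was called in mid AVFs with limma-voom (1.33) or without these AVFs (1.19), and in late AVFs with DESeq2 (1.72), the likelihood ratio test (1.72), limma-voom (1.73), filterByExpr (1.72), no filter (1.72), or without these AVFs (1.65).

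Leaving out 1 library, *Timp2* in late AVFs ranged from -1.54 to -1.06, *Timp3* in late AVFs from 1.53 to 1.89 (called without contralateral vein 632 or early AVF 3, 5, or 6), and *Timp1* in late against early AVFs from -2.58 to -2.08. The late *Timp2* value against mid AVFs turned to -0.10, -0.53, and -0.57 in libraries labelled female, without the 8 libraries, and without them with a sex term, and with 1 library left out it ranged from -0.045 (without late AVF 23) to 0.18. Late *Timp4* against mid AVFs ranged from -0.27 to 0.080 (without mid AVF 13). Between mid and early AVFs, *Timp1* ranged from -2.35 to -1.85 and *Timp3* from 2.09 to 2.53, both called without early AVF 1, 2, 4, or 10.

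Genes called in early AVFs (1599) were 2440 with DESeq2, 2994 with limma-voom, 3803 with filterByExpr, 3938 with no filter, 327 in libraries labelled female, 657 without the 8 libraries, 542 with a sex term too, and 1034 without early AVFs 3, 5, and 6. In mid AVFs (767) they were 1418 with DESeq2, 1158 with the likelihood ratio test, 2483, 2823, 2728, 192, 115, and 98 in the order above. In late AVFs (676) they were 1293, 1044, 2356, 2696, 2567, 173, 15, and 12 in the same order, and 432 to 889 with 1 library left out. Between late and early AVFs (381) they were 753 with DESeq2, 625 with the likelihood ratio test, 208 with no filter, 0 in libraries labelled female (1009 at an unadjusted *p* under 0.05 in edgeR), 3 without the 8 libraries, 0 with a sex term too (524 at an unadjusted *p* under 0.05), 32 without early AVFs 3, 5, and 6, and 32 to 549 with 1 library left out. In single cells, *Timp2* in fibroblast-like cells of late AVFs was 0.837 times contralateral veins at up to 20% mitochondrial counts, compared with 0.823 times.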
